A study of Danio rerio with 12 samples.

Results

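STAT proteins are the transcription factors at the end of the JAK-STAT pathway. A cytokine or interferon receptor activates its JAK kinases, these phosphorylate a STAT, and the STAT pairs up, enters the nucleus and binds the promoters of the cytokine's target genes. Zebrafish kept duplicates of some family members, among them stat1a and stat1b. The 8 genes described here, stat1a, stat1b, stat2, stat3, stat4, stat5a, stat5b and stat6, were found by their symbols in the deposited tables, which together list 32349 genes. All 8 were present and all 8 passed the filter on low counts, which left 26508 genes for testing. stat2 under its own name passed it only through the group in which it was highest, as given below. The 8 genes were chosen with earlier results of these data known, so counts of calls among them are descriptions.

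The libraries came from pools of 25 whole zebrafish larvae at 3 days post fertilization. There were 3 libraries each of Tg(ifih1_mut) larvae with poly I:C, control larvae with poly I:C, Tg(ifih1_mut) larvae without it, and control larvae without it. Tg(ifih1_mut), here ifih1mut, is a transgenic line named after ifih1, the gene of the double-stranded RNA sensor MDA5, and poly I:C is a synthetic double-stranded RNA. No source used here gives the promoter or the change in the transgene, the background of the controls, or how much poly I:C was given, how and for how long. Nothing in the labels ties pools to separate clutches, and the p-values below measure only the spread between these pools. In a pool of whole larvae, fewer cells of a type and less RNA per cell cannot be told apart.

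Libraries are named by the number in the deposited column headers. These are A72, A73 and A74 for ifih1mut with poly I:C, A78, A79 and A80 for control with poly I:C, A75, A76 and A77 for unstimulated ifih1mut, and A81, A82 and A83 for unstimulated control. Totals ran between 31876869 and 100839015 counts. Libraries at the same position in their groups deviated together over the 22829 genes compared for this. They are called sets 1, 2 and 3, a pattern of the data that the labels do not state. Levels are CPM, the counts of a gene scaled to a common library size after TMM normalisation. Reads on ifih1 averaged 25.4 ± 7.90 CPM in ifih1mut and 2.07 ± 0.173 CPM in control pools with poly I:C, and 14.1 ± 2.99 CPM in ifih1mut and 2.34 ± 0.376 CPM in control pools without it (SD, n = 3 each), so the ifih1mut labels go with high ifih1 in all 6 of their libraries. All 19 detected marker genes of larval muscle, nerve, lens, liver, pancreas, skin, blood and other tissues had counts in every group.

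stat1b was the STAT gene with the largest difference. Its level was 166.7, 96.2 and 389.5 CPM in A72, A73 and A74, the ifih1mut pools with poly I:C. In the control pools with poly I:C it was 0.711, 0.60 and 5.99 CPM in A78, A79 and A80. Without poly I:C the ifih1mut pools held 0.46, 0.454 and 0.703 CPM, and the control pools 0.392, 0.573 and 0.756 CPM. The 3 pools that had both the transgene and poly I:C were far above the other 9, among which only A80 exceeded 1 CPM. The unstimulated values rest on 16 to 46 counts in ifih1mut and 24 to 41 counts in control pools. A80 was one of 3 control pools given poly I:C, and its value was above every unstimulated pool while A78 and A79 were within the unstimulated range.

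stat1a, the other duplicate, differed by much less and started from a high level. It had 129.1, 94.2 and 148.0 CPM in A72, A73 and A74, against 67.3, 53.6 and 53.7 CPM in A78, A79 and A80. Unstimulated larvae had 60.4, 48.9 and 47.4 CPM with the transgene and 64.1, 47.6 and 45.5 CPM as controls. Every ifih1mut pool with poly I:C was again above every other pool, while the other 3 groups overlapped. Both duplicates are therefore highest in the same 3 pools, and they differ in the level from which they stand out.

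**Figure D1:**
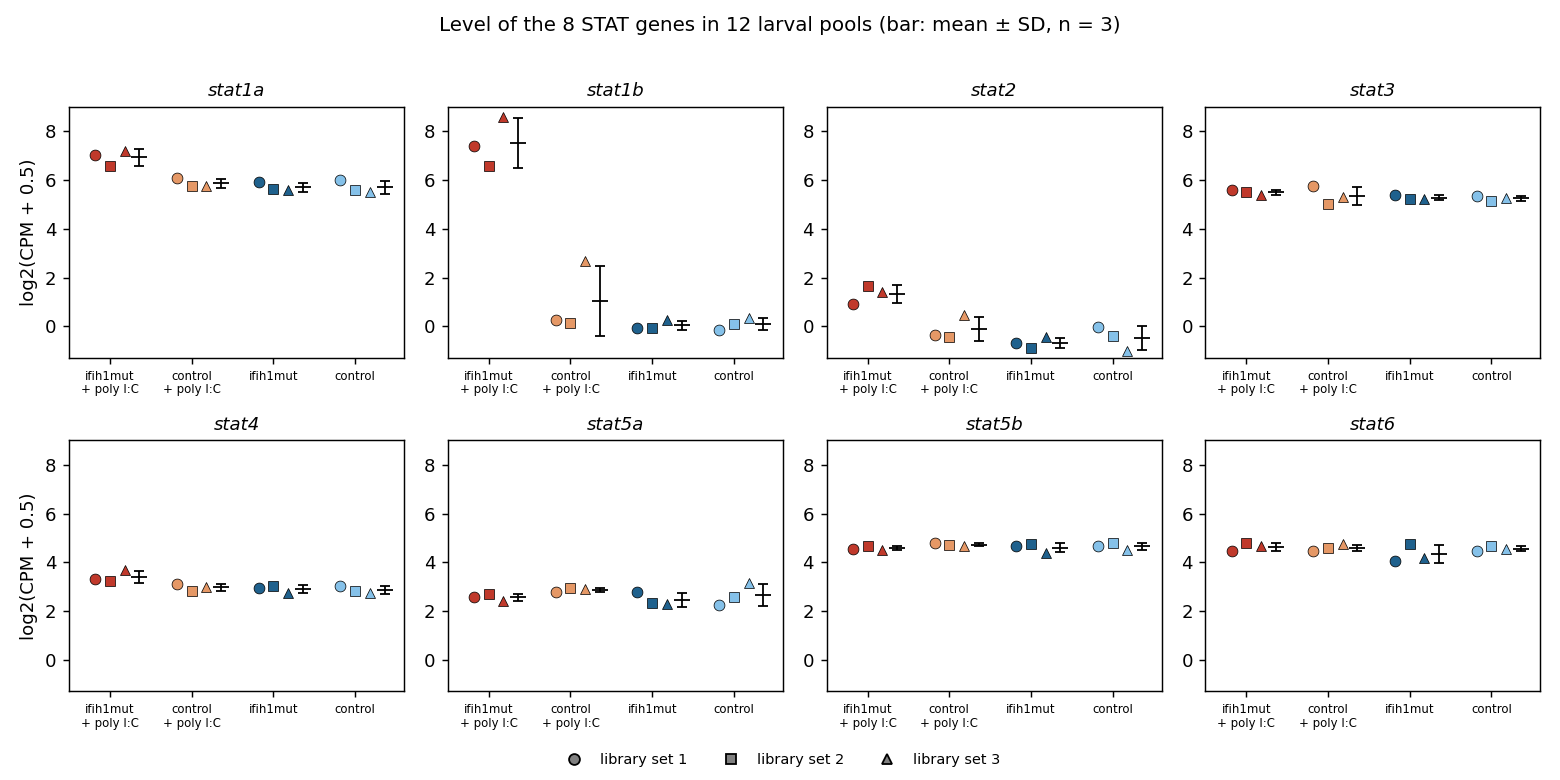
Level of each STAT gene as log2(CPM + 0.5) in 12 pools of larvae, with poly I:C groups on the left of each panel and ifih1mut left of its control; symbols mark the library set and bars the mean ± SD (n = 3). stat1a and stat1b are highest in the 3 ifih1mut pools with poly I:C, and stat3, stat5b and stat6 run nearly level across the groups.

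Between ifih1mut and control pools with poly I:C, stat1b rose 89.1-fold and stat1a 2.13-fold. The log2 fold changes were 6.48 (SE 0.84, adjusted p = 0.0039) for stat1b and 1.09 (SE 0.19, adjusted p = 0.024) for stat1a, by edgeR's quasi-likelihood test with Benjamini-Hochberg adjustment over all genes tested. These 2 of the 8 STAT genes passed an adjusted p of 0.05 in this comparison and none was called lower, where 0.6% of all genes tested were called in either direction. The size for stat1b depended on single libraries, at 331-fold without A80 and 53.7-fold without A74, with adjusted p-values of 0.0018 and 0.010. The stat1a difference kept a log2 fold change between 0.94 and 1.25 with any 1 library left out, but its adjusted p was above 0.05 without A72, A74, A78, A79 or A80, at 0.16 at most. Fitted on these 2 groups alone, which leaves fewer degrees of freedom, neither duplicate was called, with edgeR adjusted p-values of 0.084 for stat1b and 0.10 for stat1a at nearly the same fold changes.

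In ifih1mut larvae, poly I:C pools against unstimulated pools, stat1b rose 396-fold and stat1a 2.37-fold. The edgeR log2 fold changes were 8.63 (SE 0.94, adjusted p = 0.0010) and 1.25 (SE 0.19, adjusted p = 0.0092). Again 2 of 8 STAT genes passed the test, where 0.69% of all genes did. stat1b came to 239-fold without A74. For stat1a the call was lost without A76 or A77, with adjusted p-values of 0.065 and 0.069, and also with only these 2 groups in the fit (0.053), where stat1b was still called. This comparison shares its ifih1mut poly I:C libraries with the one before it, so the pair of results is not independent.

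The remaining pairs of groups gave no STAT call. In unstimulated larvae, ifih1mut against control, the log2 fold changes of stat1a and stat1b were -0.01 (95% interval -0.41 to 0.40) and 0.04 (-2.09 to 2.16), with 0 of 8 STAT genes called by edgeR, where 0.00377% of all genes were, and ifih1 was the one gene among them. There were also 0 of 8 under an unadjusted p of 0.05 in edgeR (0.509% of all genes) and 0 of 8 called by DESeq2 (0.00754% of all genes). In control larvae, poly I:C against no poly I:C, 0 of 8 were called by edgeR and 0 by DESeq2, where each called 0% of all genes, with 1 of 8 under an unadjusted p of 0.05 in edgeR (1.38% of all genes). That gene was stat1b, at a log2 fold change of 2.19 (SE 0.88, adjusted p = 1), and without A80 its value was 0.29. The stat1a interval in the same comparison was -0.26 to 0.56.

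**Figure D2:**
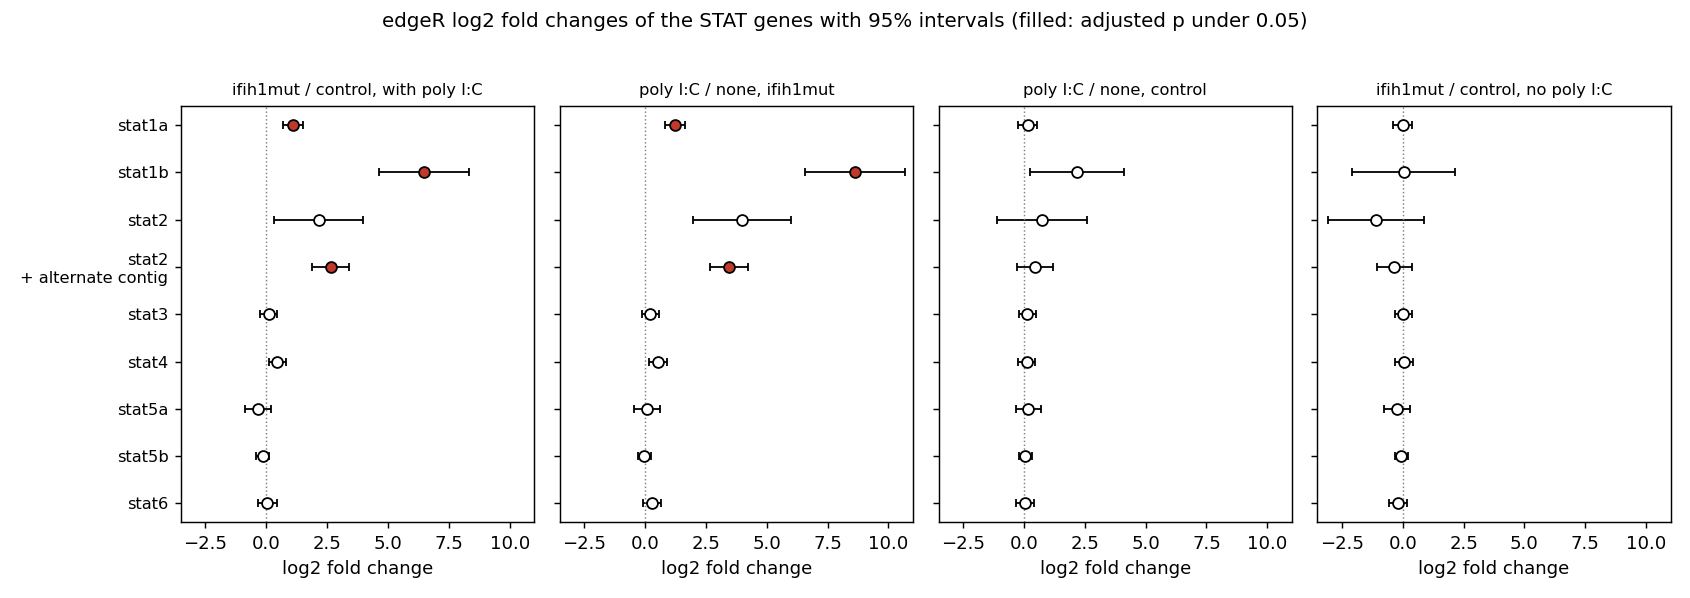
edgeR log2 fold changes of the STAT genes (dots) with 95% intervals (bars) in 4 comparisons, each named as the group on top of the fold over the one below; filled dots have an adjusted p under 0.05. In the left 2 panels stat1b lies at 6.48 and 8.63 and stat1a at 1.09 and 1.25, and in the right 2 panels no dot is filled; the row with the alternate contig is the sum of stat2 and an unnamed STAT gene model.

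The response to poly I:C was set against genotype in the same fit. The difference of the poly I:C effects, ifih1mut minus control, was 6.44 on the log2 scale for stat1b (SE 1.25, adjusted p = 0.12) and 1.095 for stat1a (SE 0.26, adjusted p = 0.34) in edgeR, so neither was called, where 0.155% of all genes were. Of the 8 STAT genes 3 were under an unadjusted p of 0.05 in edgeR (stat1a, stat1b and stat2), where 2.04% of all genes were. Of these, stat2 passed the filter only through the ifih1mut pools with poly I:C, so it is no independent support. DESeq2 called 2 of 8, stat1a and stat1b, where it called 0.513% of all genes. edgeR with the library set as a block called the same pair, where 0.298% of all genes were called, at adjusted p-values of 0.048 for stat1a and 0.0033 for stat1b. Without A80 the edgeR difference for stat1b was 8.33 with an adjusted p of 0.018. Over all fits with 1 library left out it ran from 5.72 to 8.33, with edgeR adjusted p-values from 0.018 to 0.40. For stat1a the difference ran from 0.92 to 1.26 in these fits, with edgeR adjusted p-values from 0.11 to 0.89.

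The duplicates were next compared within each library, by the ratio of their CPM, which a library's total does not affect. The genes are listed with nearly the same length, 4445 bases for stat1b and 4430 bases for stat1a, so the ratio of CPM is close to a ratio per length. In ifih1mut pools with poly I:C, stat1b was 1.29, 1.02 and 2.63 times stat1a in A72, A73 and A74. In control pools with poly I:C, stat1a was the more abundant one, at 94.7, 89.3 and 8.96 times stat1b in A78, A79 and A80. In unstimulated pools stat1a was 131, 108 and 67.4 times stat1b in ifih1mut and 164, 83 and 60.2 times stat1b in control. Thus stat1a was far more abundant than stat1b in 8 pools and still the more abundant in A80, and stat1b equalled or passed it in the 3 ifih1mut pools with poly I:C.

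On the log2 scale, with 0.5 CPM added to each gene, the mean ratio of stat1b to stat1a was 0.60 ± 0.71 in ifih1mut and -4.83 ± 1.53 in control pools with poly I:C (SD, n = 3 each). Without poly I:C it was -5.67 ± 0.34 in ifih1mut and -5.62 ± 0.51 in control pools (SD, n = 3 each). The ifih1mut and control pools with poly I:C did not overlap and differed by 5.43 (exact two-sided permutation test, p = 0.1, the smallest that 3 against 3 allows). Within ifih1mut larvae the poly I:C and unstimulated pools differed by 6.26 (exact permutation p = 0.1, again the smallest possible). Poly I:C moved the ratio by 5.47 more in ifih1mut than in control larvae, with an exact permutation p of 0.045 where genotype labels were exchanged within each stimulation, 400 arrangements in all. These exchanges assume no genotype difference in either stimulation, so the p does not single out the response to poly I:C. That p was 0.05 with 1 CPM added or with unscaled library totals, 0.094 with exchanges kept within library sets, and between 0.02 and 0.07 with 1 library left out. The corresponding differences were -0.05 between unstimulated ifih1mut and control pools (exact permutation p = 0.9) and 0.79 between poly I:C and unstimulated control pools (exact permutation p = 0.7).

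**Figure D3:**
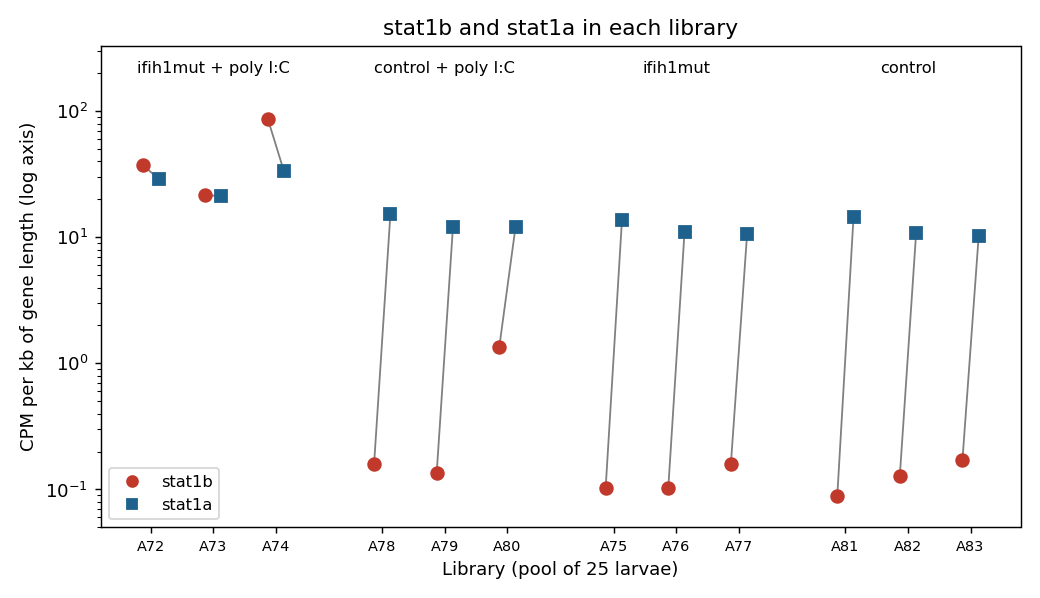
stat1b (circles) and stat1a (squares) in CPM per kb of listed gene length on a log axis, joined within each library; the 4 groups run from ifih1mut with poly I:C on the left to unstimulated control on the right. The squares lie above the circles in 9 libraries, by 8.99 to 164 times per length, and the circles lie at or above the squares in the 3 ifih1mut pools with poly I:C.

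The duplicates lie on different chromosomes in the deposited coordinates, whose genome build is not given in the sources used here. stat1a (ENSDARG00000006266) is listed on chromosome 22, plus strand, from 12798569 to 12826962. stat1b (ENSDARG00000076182) is on chromosome 9, plus strand, from 41218967 to 41247197. stat1b follows stat4 (ENSDARG00000028731, chromosome 9, 41156287 to 41208343) on the same strand, starting 10624 bases after its end. The other members are spread over chromosomes 6 (stat2), 12 (stat5b), 23 (stat6) and 3, where stat5a starts 144097 bases after the end of stat3. A further row with the STAT family annotation and only a clone name starts 2260 bases after stat1b. It held 9 to 12 counts in ifih1mut and 2 to 8 counts in control pools with poly I:C, 5 to 14 and 1 to 11 counts in unstimulated ifih1mut and control pools, and did not pass the filter. How the authors counted reads that match both duplicates is not given in the sources used here, so a share of such reads on the wrong duplicate was not measured.

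stat2, whose protein carries the activation domain of the interferon complex in mammals, has a low level under its own name. Its listed row, on chromosome 6, minus strand, from 39123544 to 39160422 (ENSDARG00000031647), held 1.38, 2.67 and 2.17 CPM in A72, A73 and A74, against 0.278, 0.24 and 0.873 CPM in A78, A79 and A80. Unstimulated ifih1mut pools had 0.115, 0.0413 and 0.229 CPM. Unstimulated control pools had 0.487, 0.268 and 0 CPM, where 0 counts in A83 allow up to 0.0945 CPM at 3 counts. The ifih1mut pools with poly I:C were above all others, on 53 to 91 counts each. The listed row passed the filter on low counts only through these pools, so its comparisons with them are no independent support for a family pattern. The edgeR log2 fold changes were 2.15 (SE 0.83, adjusted p = 1) against control pools with poly I:C and 3.98 (SE 0.91, adjusted p = 0.12) against unstimulated ifih1mut pools, so stat2 was not called in either. In the second of these comparisons DESeq2 called it (adjusted p = 0.00081) and so did edgeR with the library set as a block (adjusted p = 0.049). Both thus called 3 of 8 STAT genes there, where they called 1.16% and 1.04% of all genes. The authors' deposited table for ifih1mut against control with poly I:C has 3 of the 8 STAT genes under an adjusted p of 0.05, stat2 among them at 0.0258, where 0.834% of its genes are.

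Most counts at the stat2 positions stand under another row. The tables list an unnamed gene model on an alternate contig of chromosome 6, minus strand, from 39124543 to 39160432, with the authors' STAT family annotation. It was looked for after the low stat2 counts had been seen, and singled out after its own values were seen. The p-values given below for it and for its sum with stat2 are therefore not from planned tests. This row had 59.4, 23.1 and 56.3 CPM in A72, A73 and A74, against 5.53, 7.71 and 8.40 CPM in A78, A79 and A80. Unstimulated ifih1mut pools had 4.66, 4.67 and 3.46 CPM and unstimulated control pools 6.59, 3.33 and 5.95 CPM. It held between 89.6% (A73, Wilson 95% interval 87.5 to 91.5) and 100% (A83, 98.0 to 100) of the counts of the pair in the 12 libraries, intervals that cover counting error only. The files do not say how reads were shared between the contig and the chromosome, and whether the row is an allele or haplotype of stat2 was not tested.

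Alone, the alternate-contig row rose 6.41-fold between ifih1mut and control pools with poly I:C (edgeR log2 fold change 2.68, SE 0.36, adjusted p = 0.0051). Poly I:C in ifih1mut larvae raised it 10.9-fold (3.44, SE 0.37, adjusted p = 0.0010 in edgeR). Summed with stat2 the pair of rows rose 6.29-fold (log2 2.65, SE 0.34, adjusted p = 0.0039 in edgeR) and 11-fold (log2 3.46, SE 0.36, adjusted p = 0.00074 in edgeR) in these comparisons. With any 1 library left out the sum kept an adjusted p of at most 0.037 and 0.010. Its difference of poly I:C effects between the genotypes was 3.00 (SE 0.47, adjusted p = 0.038 in edgeR, where 0.162% of genes were called), and this call was lost, with adjusted p-values of up to 0.15, when any library other than A73 was left out. The sum did not differ beyond its error between unstimulated ifih1mut and control pools (log2 -0.34, interval -1.07 to 0.39) or, in control larvae, between poly I:C and no poly I:C (0.47, interval -0.26 to 1.20).

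**Figure D4:**
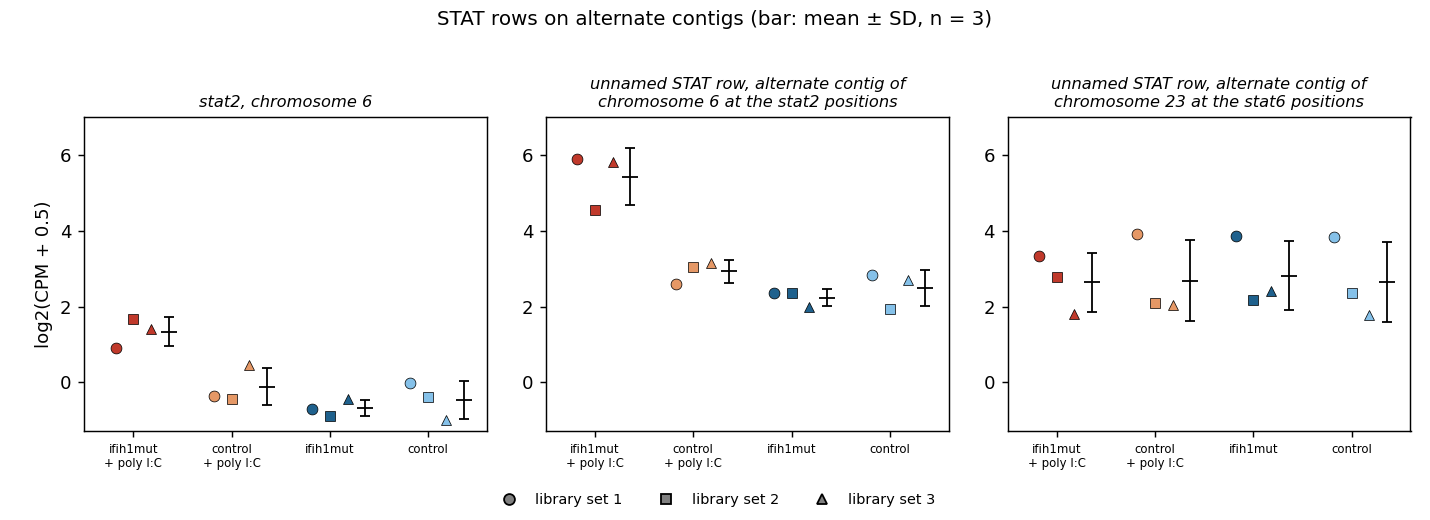
log2(CPM + 0.5) in 12 pools for the listed stat2 row, the unnamed STAT row at the stat2 positions of an alternate contig of chromosome 6, and the unnamed STAT row at the stat6 positions of an alternate contig of chromosome 23; symbols mark the library set, bars the mean ± SD (n = 3). The middle row repeats the high ifih1mut poly I:C pools of stat2 at 23.1 to 59.4 CPM, and the right row is highest in set 1 of every group.

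Of the 12 rows annotated as STAT family, 2 more lie on alternate contigs. The row at the stat6 positions followed the library set and not the groups, with a range of 9.63 to 14.6 CPM over the 4 set 1 libraries, above the 2.93 to 6.34 CPM of the remaining 8. The row at the stat5a positions held at most 1.24 CPM in any library. Adding these rows to stat6 and stat5a changed no call. Between ifih1mut and control pools with poly I:C the log2 fold change of stat6 was -0.01 with the row added and 0.04 (SE 0.17) for the named row alone.

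stat4, which carries the interleukin-12 signal in mammalian lymphocytes, had a small difference that failed the correction. It had 9.32, 8.81 and 12.3 CPM in A72, A73 and A74, against 8.07, 6.63 and 7.38 CPM in A78, A79 and A80. Unstimulated ifih1mut pools had 7.22, 7.75 and 6.10 CPM and unstimulated control pools 7.69, 6.59 and 6.11 CPM. Every ifih1mut pool with poly I:C was above the other 9 pools. The log2 fold changes were 0.46 (SE 0.16, adjusted p = 0.87) against control pools with poly I:C and 0.53 (SE 0.16, adjusted p = 0.55) against unstimulated ifih1mut pools in edgeR, both under 0.05 before adjustment.

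stat3, the main effector of interleukin-6 type cytokines and of the acute phase response in mammals, had 47.9, 44.8 and 42.0 CPM in ifih1mut and 53.5, 31.9 and 39.3 CPM in control pools with poly I:C. The unstimulated values were 41.97, 36.9 and 36.6 CPM in ifih1mut and 40.3, 34.8 and 38.2 CPM in control pools. The stimulated ifih1mut pools were above the unstimulated ones by less than the width of the control poly I:C range. The stat3 log2 fold changes were 0.11 (interval -0.24 to 0.46) for ifih1mut against control with poly I:C and 0.22 (-0.12 to 0.57) for poly I:C in ifih1mut larvae.

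stat5a and stat5b, the zebrafish counterparts of the STAT5 genes that act downstream of growth hormone, prolactin and blood cell growth factors in mammals, were not called in any comparison. stat5b ranged from 22.4 to 25.2 CPM in ifih1mut and from 24.7 to 27.4 CPM in control pools with poly I:C, and from 20.4 to 26.6 CPM in ifih1mut and 22.0 to 27.3 CPM in control pools without it. Its 95% interval for ifih1mut against control with poly I:C was -0.40 to 0.12 on the log2 scale, the narrowest of the family. stat5a had 5.39, 6.02 and 4.84 CPM in ifih1mut and 6.34, 7.17 and 6.93 CPM in control pools with poly I:C, without overlap and with ifih1mut the lower group. Its edgeR log2 fold change of -0.33 (interval -0.86 to 0.20, adjusted p = 1) did not pass, and unstimulated control pools alone spanned 4.30 to 8.41 CPM.

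stat6, the factor of interleukin-4 and interleukin-13 in mammals, had 21.5 to 27.1 CPM in ifih1mut and 21.5 to 26.1 CPM in control pools with poly I:C. Without poly I:C it had 16.2 to 26.4 CPM in ifih1mut and 21.3 to 24.9 CPM in control pools. All 4 ranges overlapped. The interval for ifih1mut against control with poly I:C was -0.34 to 0.42, and for poly I:C in ifih1mut larvae -0.10 to 0.66.

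Across the family, 4 of 8 STAT genes had every ifih1mut pool above every control pool with poly I:C (stat1a, stat1b, stat2 and stat4) and 1 had every ifih1mut pool below (stat5a), where 4.16% of all genes tested had the higher and 3.2% the lower pattern. With poly I:C against without, in ifih1mut larvae, 5 of 8 had the higher pattern, where 3.55% of all genes did. stat3 was added by a near tie, with its lowest stimulated pool at 42.0 and its highest unstimulated pool at 41.97 CPM. stat2 passed the filter only through the ifih1mut pools with poly I:C, so its part in both counts is no independent support. No STAT gene had the pattern between unstimulated ifih1mut and control pools (1.82% of all genes) or for poly I:C in control larvae (2.14% of all genes). The median log2 fold change of the 8 genes was 0.29 and 0.40 in the first pair of comparisons, beside -0.00 and -0.01 over all genes tested, and -0.03 and 0.14 in the last pair. stat2 is part of these medians too, so those of the first pair are no independent support for a shift of the family.

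Divided by listed gene length, the order of the STAT genes was the same in unstimulated ifih1mut and unstimulated control pools. In unstimulated control pools stat1a averaged 11.8 ± 2.30 and stat3 10.97 ± 0.81 CPM per kb, with overlapping pools. stat5b at 6.57 ± 0.70 and stat6 at 6.30 ± 0.50 CPM per kb also overlapped, followed without overlap by stat5a at 2.29 ± 0.81, stat4 at 1.08 ± 0.13, stat1b at 0.129 ± 0.041 and stat2 at 0.038 ± 0.037 CPM per kb (SD, n = 3 each). In ifih1mut pools with poly I:C the order began with stat1b at 48.9 ± 34.4 and stat1a at 27.9 ± 6.16 CPM per kb, which overlapped, then stat3 at 13.05 ± 0.86, with stat2, under its own name, still last at 0.313 ± 0.098 CPM per kb (SD, n = 3 each). Thus, with stat2 taken from its named row, stat1b was next to last among the 8 in every group but 1. The alternate-contig row at stat2 averaged 0.958 and 0.772 CPM per kb in unstimulated control and ifih1mut pools, and 1.31 in control pools with poly I:C. stat1b averaged 0.129, 0.121 and 0.548 CPM per kb in these groups, so its rank depends on which row stands for stat2.

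The length-scaled levels of the 8 named rows were summed, leaving out the alternate-contig rows. The sum was 107 ± 39 CPM per kb in ifih1mut and 42.9 ± 4.61 CPM per kb in control pools with poly I:C. Without poly I:C it was 38.0 ± 3.22 in ifih1mut and 39.2 ± 2.13 CPM per kb in control pools (SD, n = 3 each). stat1b made up 42.2 ± 14.9% of the sum in ifih1mut and 1.29 ± 1.63% in control pools with poly I:C, and 0.326 ± 0.117% and 0.333 ± 0.119% in unstimulated ifih1mut and control pools. The share of stat1a stayed near the same size, at 27.1 ± 4.24% in ifih1mut and 30.6 ± 1.78% in control pools with poly I:C, and 31.0 ± 2.71% and 30.0 ± 4.11% in unstimulated ifih1mut and control pools. Shares of one sum are bound to each other, so those of stat3, stat5b and stat6 are lower where stat1b is high.

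**Figure D5:**
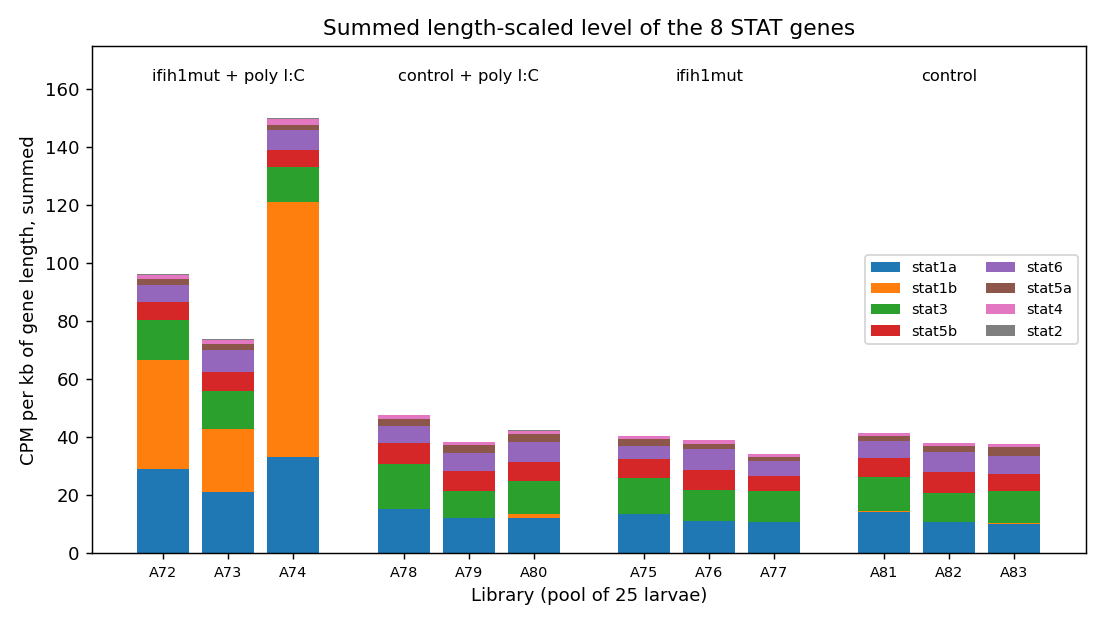
Summed level of the 8 named STAT genes in CPM per kb of listed gene length for each library, stacked by gene; groups run from ifih1mut with poly I:C on the left to unstimulated control on the right. The 3 ifih1mut pools with poly I:C reach 74.1 to 150 CPM per kb, of which stat1b is 29.2 to 58.4%, while the 9 other pools stay between 34.4 and 47.8 CPM per kb. Alternate-contig rows are left out of the sum.

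The libraries were also compared within their sets. In the ratio of CPM, ifih1mut over control with poly I:C, stat1b was at 234, 160 and 65.0 and stat1a at 1.92, 1.76 and 2.76 in sets 1, 2 and 3. For poly I:C over no poly I:C in ifih1mut larvae, stat1b was at 362, 212 and 554 and stat1a at 2.14, 1.93 and 3.12. The alternate-contig row at stat2 had ratios of 10.7, 3.00 and 6.70 for ifih1mut over control with poly I:C. All of these ratios lie above 1 in each set. stat1b over no poly I:C in control larvae had ratios of 1.82, 1.05 and 7.93, the last of them from A80.

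The other genes of the pathway were read by role, in lists chosen with earlier results of these data known. No JAK kinase passed the test between ifih1mut and control pools with poly I:C, with 0 of 5 called by edgeR or DESeq2, where they called 0.6% and 1.03% of all genes. In edgeR 1 of 5 was under an unadjusted p of 0.05, where 3.74% of all genes were. That one was tyk2, a kinase of the type I interferon receptor, at 18.0 ± 2.27 CPM in ifih1mut and 14.6 ± 0.320 CPM in control pools with poly I:C (SD, n = 3 each), a log2 fold change of 0.29. jak1, jak2a, jak2b and jak3, kinases of cytokine receptors, had log2 fold changes of 0.05, 0.06, -0.09 and -0.20. For poly I:C in ifih1mut larvae 0 of 5 were called by edgeR or DESeq2 (0.69% and 1.16% of all genes). There tyk2 was again the one under an unadjusted p of 0.05 in edgeR (3.64% of all genes). Its log2 fold change was 0.40 (SE 0.12, adjusted p = 0.48 in edgeR). irf9, a DNA-binding partner of STAT proteins in the interferon response, had 22.9 ± 6.16 CPM in ifih1mut and 13.2 ± 2.95 CPM in control pools with poly I:C (SD, n = 3 each), with a log2 fold change of 0.79 (SE 0.22, adjusted p = 0.33 in edgeR). Between poly I:C and unstimulated ifih1mut pools irf9 was at 1.06 (SE 0.22, adjusted p = 0.066 in edgeR) and was called by DESeq2 and by edgeR with the library set as a block.

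Among receptors, 0 of 4 tested interferon receptor chains and 0 of 24 tested rows of other cytokine receptors were called by edgeR between ifih1mut and control pools with poly I:C (0.6% of all genes) or between poly I:C and unstimulated ifih1mut pools (0.69%). Under an unadjusted p of 0.05 there were 0 and 2 of them in the first comparison, where 3.74% of all genes were, and 0 and 5 in the second, where 3.64% were. DESeq2 called 0 in the first, where it called 1.03% of all genes. Of the 9 interferon receptor symbols searched, 5 matched a row and 4 were tested. Interferon receptor chains other than these 4, those of the type I receptor among them, are not covered by the counts. crfb6, crfb17, il10rb and ifngr1, chains of interferon and interleukin-10 family receptors, had log2 fold changes of -0.14, -0.08, 0.25 and 0.15. Among the other receptors il4r.1, a chain of the interleukin-4 receptor, was at 0.63 (SE 0.22, adjusted p = 0.83 in edgeR) and il13ra1, a chain of the interleukin-13 receptor, at 0.45 (SE 0.17). Without poly I:C, il4r.1 was also higher in ifih1mut than in control pools, at 8.87 ± 0.76 and 6.12 ± 0.40 CPM (SD, n = 3 each). Its log2 fold change there was 0.54 (SE 0.22, unadjusted p = 0.032 in edgeR), without a call. Its difference of poly I:C effects between the genotypes was 0.09 (SE 0.31). il12rb2 and il21r.1, receptor chains for interleukin-12 and interleukin-21, were at 0.52 and 0.36. DESeq2 called 1 of the 24, il13ra1, for poly I:C in ifih1mut larvae, where it called 1.16% of all genes.

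Of 17 tested inhibitors of the pathway, 1 rose and 0 fell between ifih1mut and control pools with poly I:C, where 0.6% of all genes were called. It was usp18, which in mammals blocks the type I interferon receptor, at 4.77 ± 2.54 CPM in ifih1mut and 0.577 ± 0.062 CPM in control pools (SD, n = 3 each), a rise of 8.25-fold (log2 3.04, SE 0.40, adjusted p = 0.0042 in edgeR). Poly I:C in ifih1mut larvae raised usp18 8.56-fold (adjusted p = 0.0030 in edgeR). socs1a, a feedback inhibitor of JAK kinases, was at 8.34 ± 4.42 CPM in ifih1mut and 2.31 ± 0.761 CPM in control pools with poly I:C (SD, n = 3 each), with a log2 fold change of 1.85 (SE 0.40, adjusted p = 0.096 in edgeR). It was called by DESeq2 and by edgeR with the library set as a block (adjusted p = 0.0020), so that each called 2 of 17 inhibitors there, beside 1.03% and 0.883% of all genes. socs3a, the inhibitor of interleukin-6 type signals, and ptpn11b, a phosphatase, were at log2 0.52 and 0.43 without a call.

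Lists of genes downstream of the STATs were read in the same way, each on its own and with no test between lists. They too were chosen with earlier results of these data known. Their counts beside the share of all genes are therefore descriptions and no independent support for a rise of a list. Which listed genes passed the filter only through the ifih1mut pools with poly I:C is not given here. Of 43 tested interferon-stimulated genes, 22 rose and 0 fell between ifih1mut and control pools with poly I:C, where 0.6% of all genes were called, with a median log2 fold change of 2.57. Among them dhx58 and ifih1, RNA sensors, and helz2 and xaf1, other interferon-induced genes, rose 80.2-fold, 12.3-fold, 39.1-fold and 39-fold (edgeR adjusted p-values of 0.00098, 0.00051, 0.00096 and 0.0010). Of these, ifih1 was already 5.99-fold higher in ifih1mut than in control pools without poly I:C (adjusted p = 0.0097 in edgeR). Poly I:C in ifih1mut larvae raised ifih1 1.80-fold, which DESeq2 called and edgeR did not (edgeR adjusted p = 0.27). Whether reads of the transgene are counted under ifih1 was not measured. With poly I:C against without, in ifih1mut larvae, 24 of 43 rose and 0 fell, where 0.69% of all genes were called, with a median of 2.70. The inhibitor usp18 is in both counts of genes that rose, and socs1a is also on this list. These genes were already given among the inhibitors, so the lists are not separate for them. Of 21 target genes of STAT3, 0 were called by edgeR or DESeq2 (0.6% and 1.03% of all genes) and 0 were under an unadjusted p of 0.05 (3.74% of all genes) between ifih1mut and control pools with poly I:C, with a median of 0.11. For poly I:C in ifih1mut larvae 0 of the 21 were called by edgeR or DESeq2 (0.69% and 1.16% of all genes) and 3 were under an unadjusted p of 0.05 (3.64% of all genes), with a median of 0.15. Of 8 target genes of STAT5 and STAT6, 0 were called by either tool in each of these comparisons, with medians of 0.11 and 0.05. edgeR called 0.6% and 0.69% of all genes there, and DESeq2 1.03% and 1.16%. In each, 1 of the 8 was under an unadjusted p of 0.05 in edgeR (3.74% and 3.64% of all genes). It was il4r.1 both times, the gene already given among the receptors, where its difference between unstimulated pools is also given. Between ifih1mut and control pools with poly I:C, the STAT3 targets fga and fgb, which encode fibrinogen chains, had log2 fold changes of -0.25 and -0.30, mcl1a, a survival gene, 0.23 and junba, a transcription factor gene, 0.48. arg2, cish and igf1, from the list of STAT5 and STAT6 targets, were at 0.21, 0.16 and 0.19.

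Markers of blood cells that could carry STAT transcripts were read beside these values. The summed level of 17 macrophage marker rows was 819 to 1011 CPM in ifih1mut and 803 to 936 CPM in control pools with poly I:C, and 694 to 1315 CPM in ifih1mut and 686 to 1222 CPM in control pools without it. Of the 13 tested, 11 had a positive log2 fold change between ifih1mut and control pools with poly I:C, with a median of 0.27. By edgeR 1 was called higher (lgals3bpb), where 0.6% of all genes were called, and 4 were under an unadjusted p of 0.05, where 3.74% of all genes were. For poly I:C in ifih1mut larvae 10 of 13 were positive, with a median of 0.40. There lgals3bpb was again called (0.69% of all genes) and 5 were under an unadjusted p of 0.05 (3.64% of all genes). DESeq2 and edgeR with the library set as a block also called marco in that comparison, where they called 1.16% and 1.04% of all genes. slc7a7 was at 0 in all 6 ifih1mut pools, while no macrophage marker row was at 0 throughout a control group. Its level in the control pools is not given here, so these zeros are no finding about a cell type. Neutrophil markers summed to 179 to 296 CPM in ifih1mut and 212 to 244 CPM in control pools with poly I:C, and 211 to 263 CPM and 230 to 257 CPM in unstimulated ifih1mut and control pools. Lymphoid markers summed to 111 to 147 CPM in ifih1mut and 119 to 151 CPM in control pools with poly I:C, and 110 to 143 CPM and 124 to 150 CPM in unstimulated ifih1mut and control pools. cd8a was at 0 in the ifih1mut pools with poly I:C, and its level in the other groups is likewise not given here. Between ifih1mut and control pools with poly I:C, 7 of 11 tested neutrophil markers were positive (median 0.22) and 4 of 8 lymphoid markers (0.02). For poly I:C in ifih1mut larvae it was 10 of 11 (0.38) and 5 of 8 (0.08). Over all genes tested the medians were -0.00 and -0.01. No neutrophil or lymphoid marker was called in either comparison by edgeR (0.6% and 0.69% of all genes) or DESeq2 (1.03% and 1.16%). Under an unadjusted p of 0.05 in edgeR there were 0 of each between ifih1mut and control pools with poly I:C (3.74% of all genes). For poly I:C in ifih1mut larvae 1 of 11 neutrophil and 0 of 8 lymphoid markers were (3.64% of all genes). The summed levels overlapped between all groups, and the part of cell numbers in the STAT differences was not tested.

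The genes most like stat1b and stat1a over the 12 libraries were sought among 15191 genes, by Pearson's r of log2(CPM + 0.5). These values describe libraries that share groups, sets and depth, and carry no test. For stat1b they were mxe, dhx58, rsad2, cmpk2 and aste1a, with r between 0.993 and 0.996. For stat1a they were ftr14, irgq1, gig2o, phf11 and usp18, with r between 0.97 and 0.978. With the group means removed, which leaves the differences between pools of one group, the first genes were lrrc58a for stat1b (0.963) and twistnb for stat1a (0.983), and mxe was the one gene among the first 5 of stat1b in both rankings. The other STAT genes were nearest to trpa1a for stat2 (0.926), cnstb for stat3 (0.95), rap2b for stat4 (0.971), cdr2a for stat5a (0.868), pcdh12 for stat5b (0.982) and arl1 for stat6 (0.953) with group means removed, and at the low counts of stat2 such a value is no finding.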

How the data were processed

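The members and the gene lists were chosen with earlier results of these data known. Per the file headers, the authors deposited 3 comparison tables of 6 libraries each, with a raw read count per gene and library, a log2 fold change, a p-value and its adjusted p-value. Aligner, counting program, genome build, strand setting and the test behind those values: none of them appears in the sources used here. The authors' deposited p-values and log2 values were used only where named, and 36 columns of normalized values were not used. Joining the tables gave 32349 genes. Counts repeated between tables were the same (0 of 187002 differed), and 6372 missing values were set to 0. Groups came from the titles and columns.

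filterByExpr (minimum count 10, minimum total 15) left 26508 genes. Counts were scaled by TMM and tested with edgeR 4.0.16 in R 4.3.3 (quasi-likelihood F-test, 1 coefficient per group, all 12 libraries, 8 residual degrees of freedom, adjusted p under 0.05). There were 5 contrasts. Standard errors were derived from the F statistic. Named genes were the 8 STAT genes, ifih1, up to 4 members of each list by adjusted p with poly I:C, jak1 as the remaining JAK kinase, and the genes most correlated with each STAT. The alternate-contig rows, singled out after their values were seen, were added as an alternative. Fits were tested on simulated counts. Alternatives were RLE size factors, DESeq2 1.42.0, other filters, only the groups compared, a block for library sets and leaving out each library.

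The labels give replicate numbers that the columns do not carry, so pairs could not be read from them. In the labels of unstimulated ifih1mut these numbers start higher than in the other groups. The sets rest only on the position of a library's column number in its group. Libraries of 1 set deviated together (r between 0.294 and 0.802 over 18 pairs of libraries, and between -0.626 and 0.176 over 36 pairs from different sets), so the set served as the replicate block. No source used here says what the set stands for.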

Additional observations from a re-analysis of the deposited data

Results flagged for a closer look

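The ratio of stat1b to stat1a stood out because its response to poly I:C differed between the genotypes, by 5.47 on the log2 scale, ifih1mut minus control (exact permutation p = 0.045). The exchanges behind that p assume no genotype difference in either stimulation, so it does not single out the response. The ratio moved by 6.26 in ifih1mut and by 0.79 in control larvae, and the control value rests on A80. The summed rows at the stat2 positions stood out for the same reason, with a difference of poly I:C effects of 3.00 on the log2 scale (edgeR adjusted p = 0.038). Their poly I:C effect was 3.46 in ifih1mut and 0.47 in control larvae. The alternate-contig row was singled out after its values were seen, so the adjusted p of the sum is not from a planned test. The ratio and the sum both missed 0.05 in some of the alternatives tried, as given beside these results.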

How the results depend on the processing

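The calls of stat1a and stat1b with poly I:C (2 of 8 STAT genes in each of the ifih1mut comparisons) kept their direction under RLE size factors, other filters, DESeq2 and the replicate block. Fitting only the groups compared, which leaves fewer degrees of freedom, gave 0 of 8 STAT genes and 69 of all genes for ifih1mut against control with poly I:C, and 1 of 8 (stat1b) and 99 of all genes for poly I:C in ifih1mut larvae. It gave 0 genes for unstimulated ifih1mut against control, and has no value for the difference of poly I:C effects. In the counts of all genes called, DESeq2 gave 2 between unstimulated ifih1mut and control pools, 272 between these genotypes under stimulation, 307 for stimulation within ifih1mut and 136 for the difference of effects. The replicate block gave 277 and 79 in the last pair, and DESeq2 with the block gave 7, 378, 450 and 183 in the same order and 23 for poly I:C in control larvae, in place of 1, 159, 183, 41 and 0 in edgeR. For the difference of effects 2 STAT genes were called by DESeq2, by the replicate block and by both together, and 1 with stat2 summed with its alternate-contig row. The cause of these differences was not tested, and the block changed no other STAT call than those given beside the results.

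With 1 library left out, the STAT genes called ranged from 1 to 2 for ifih1mut against control with poly I:C, from 1 to 3 for poly I:C in ifih1mut larvae and from 0 to 1 for the difference of effects. All genes called ranged from 70 to 177, from 92 to 201 and from 0 to 60 in these, and from 0 to 1 for unstimulated ifih1mut against control. The ratio of stat1b to stat1a differed by 6.97 and 5.70 for poly I:C in ifih1mut larvae with 0.1 and 1 CPM added. Its difference between genotypes was 5.09 with 1 CPM added, 5.46 with unscaled totals, 5.47 with the replicate block and 4.98 to 6.36 with 1 library left out.

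Signs that turned belonged to values without a call. For unstimulated ifih1mut against control, stat1b was at log2 -0.078 with DESeq2, -0.17 with the replicate block, -0.10 with both and -0.054 with only the groups compared. With 1 library left out, values in this comparison ran from -0.13 to 0.17 for stat1a, -0.25 to 0.23 for stat1b, -0.044 to 0.076 for stat3, -0.038 to 0.14 for stat4, -0.44 to 0.075 for stat5a and -0.14 to 0.043 for stat5b. For poly I:C in control larvae they ran from -0.086 to 1.63 for stat2, -0.086 to 0.30 for stat3, -0.01 to 0.50 for stat5a, -0.0081 to 0.14 for stat5b and -0.035 to 0.11 for stat6. In ifih1mut larvae they ran from -0.0089 to 0.29 for stat5a and -0.11 to 0.062 for stat5b. For ifih1mut against control with poly I:C they ran from -0.048 to 0.34 for stat3, -0.037 to 0.13 for stat6, -0.48 to 0.021 for jak3, -0.042 to 0.13 for jak2a, -0.15 to 0.014 for crfb17, -0.38 to 0.52 for ifngr1, -0.019 to 0.38 for arg2 and -0.012 to 0.29 for cish, and stat6 summed with its alternate-contig row gave -0.012. The difference of effects ran from -0.075 to 0.31 for stat3 and -0.41 to 0.10 for stat5a. At 0 to 91 counts a library, stat2 under its own name is limited by depth.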
